A study of Mus musculus with 6 samples.

Results

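The genes described here encode the adaptors and IRAK kinases that carry signals from Toll-like receptors into the macrophage, with the ubiquitin ligases they recruit. They were chosen by symbol: Tirap, Myd88, Irak4, Irak1, Irak2, Irak3 and Traf6 for the MyD88 branch, and Ticam2, Ticam1 and Traf3 for the TRIF branch. All 10 symbols were found among the 22192 genes of the deposited count table, and all 10 were abundant enough to be tested, with 126 counts or more in every library. They are 10 of the 11686 genes tested.

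The libraries come from RAW 264.7, a macrophage-like mouse line of BALB/c origin, and hold polyA-selected messenger RNA. In 3 libraries the cells were labelled ASPS-A1, an acidic polysaccharide purified from leaves of Acanthopanax senticosus and given at 200 µg/mL for 24 h. In 3 libraries they were labelled control, and what control cells received in place of the polysaccharide is not given in the sources used here. The titles number the treated libraries ASPS-A1, ASPS-A2 and ASPS-A3 although all 3 carry the same treatment label, which was used to form the group. The series is 1 cell line, and nothing says that the libraries came from separate cultures, so p-values measure the spread between these libraries. Totals ran from 19989318 to 22179544 counts with ASPS-A1 and from 23113454 to 26137127 in control.

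Toll-like receptors meet microbial molecules at the cell surface and in endosomes, and their cytoplasmic TIR domains dock onto TIR-domain adaptors. In the MyD88 branch, TIRAP brings MyD88 to the membrane, MyD88 assembles with IRAK4 and then IRAK1 or IRAK2, and TRAF6 builds ubiquitin chains that activate TAK1 and the IKK complex. NF-κB and MAP kinases follow, and with them inflammatory transcripts. In the TRIF branch, TRAM, the product of Ticam2, links TLR4 to TRIF, the product of Ticam1, while TLR3 binds TRIF directly. TRAF3 then joins TBK1 and IKKε, which activate IRF3 and interferon transcription. The division is a simplification, since TRAF6 also binds TRIF and TRAF3 is also found in MyD88 complexes.

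Promoter sequence was looked at because members of both branches moved. RefSeq windows of GRCm38.p6 were found for 9 members, Ticam2 not being searched, and 12 windows of the 250 bases before a transcript start were read on both strands. The motifs were the NF-κB consensus, the interferon-stimulated response core GAAANNGAA and the AP-1 site TGANTCA. They were found in 7.25%, 7.13% and 6.75% of 32851 windows of the same length from all genes. No AP-1 match was found in the members, and 4 members held a match to another motif. The shares above count windows for 1 motif at a time, so the 4 members cannot be set against them directly. The last 110 bases before the start are shown for these 4, 5′ to 3′ on the gene's strand, with the match in capitals. They are chr9:119340019-119340128 on the minus strand for Myd88, chr10:120202131-120202240 on the minus strand for Irak3, chrX:74023922-74024031 on the minus strand for Irak1 and chr12:111166260-111166369 on the plus strand for Traf3.
Myd88: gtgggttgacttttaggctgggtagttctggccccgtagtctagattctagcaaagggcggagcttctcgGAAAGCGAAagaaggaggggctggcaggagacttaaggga
Irak3: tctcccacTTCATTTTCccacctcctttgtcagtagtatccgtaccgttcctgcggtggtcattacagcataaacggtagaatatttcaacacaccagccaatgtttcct
Irak1: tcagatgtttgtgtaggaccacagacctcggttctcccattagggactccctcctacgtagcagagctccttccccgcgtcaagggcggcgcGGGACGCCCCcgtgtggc
Traf3: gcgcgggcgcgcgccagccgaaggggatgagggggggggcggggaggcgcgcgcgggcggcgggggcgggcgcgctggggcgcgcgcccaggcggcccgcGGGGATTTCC
The capitals mark the interferon-stimulated response core in Myd88, 40 to 32 bases before the start, and in Irak3 on the opposite strand, 102 to 94 bases before the start of 1 of its 2 windows. They mark the NF-κB consensus in Irak1, 18 to 9 bases before the start of the window shown (21 to 12 in its other window), and in Traf3, in the 10 bases next to the start. A match is only a match of letters, and no binding was measured.

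The comparison asks how transcripts of the adaptors and kinases differ between polysaccharide-treated and control macrophages, and whether the branches differ. With ASPS-A1, Myd88, Irak3, Ticam2 and Ticam1 were higher and Tirap, Irak4, Irak2, Traf6 and Traf3 were lower, so both TRAF ligases fell and 3 of the 4 adaptors rose. Irak1 was not past the threshold. At an adjusted p under 0.05 in edgeR, 4 of 10 were higher against 32.4% of all genes tested, and 5 of 10 were lower against 33.0%. In all, 9 of 10 were called against 65.3%, so with this many genes called the number of members called says little by itself. The libraries of both groups did not overlap for the same 9, 4 of them higher and 5 lower, against 68.5% of genes tested, 33.7% higher and 34.8% lower. Fold changes of 1.5 or more were seen for Ticam1 upward (12.8% of genes tested) and for Tirap and Traf6 downward (14.5%). In a culture, fewer cells carrying a transcript and less of it per cell cannot be told apart.

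**Figure D1:**
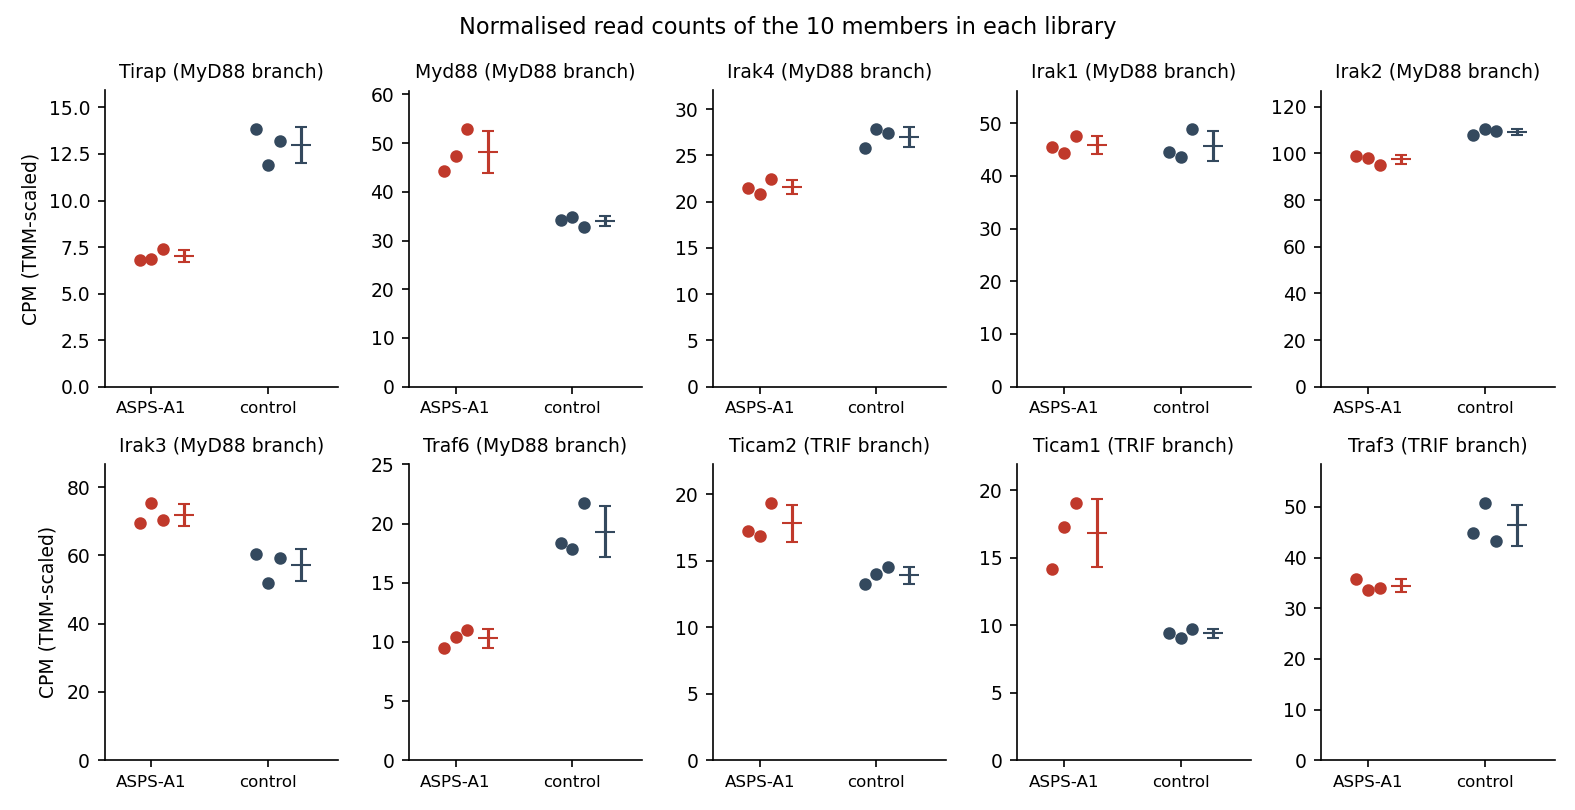
Normalised read counts (CPM, library-size-normalised with TMM factors, axes from 0) of the 10 genes, with 1 point per library and the mean ± SD beside the points, ASPS-A1 left and control right. The groups overlap for Irak1 alone, and the widest gaps relative to the level are those of Tirap, Traf6 and Ticam1.

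Tirap, which sorts MyD88 to the membrane beneath TLR2 and TLR4, was the only adaptor that fell. It had 6.83, 6.85 and 7.42 CPM (TMM-scaled) with ASPS-A1, against 13.8, 11.9 and 13.2 CPM in control. Every treated library was below every control library, and the means were 7.03 ± 0.334 and 13.0 ± 0.972 CPM (SD, n = 3 each). The log2 fold change was −0.88 ± 0.13 SE, or 1.85-fold lower, with an edgeR adjusted p of 4.70e-08.

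Myd88, the adaptor that nearly all Toll-like receptors and the interleukin-1 receptor family share, rose. Its levels were 44.2, 47.4 and 52.9 CPM with ASPS-A1, against 34.2, 34.8 and 32.9 CPM in control. The treated libraries differed more among themselves than the control libraries did, and all 3 lay above them. The means were 48.2 ± 4.38 and 34.0 ± 1.00 CPM, a log2 fold change of 0.50 ± 0.07 SE, or 1.42-fold, with an edgeR adjusted p of 6.55e-08. A shorter splice form of Myd88 is known to hold back signalling, and counts per gene do not separate the forms.

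Traf6, the ubiquitin ligase that MyD88 complexes activate, had 9.45, 10.4 and 11.0 CPM with ASPS-A1, against 18.4, 17.8 and 21.8 CPM in control. The highest treated library was far below the lowest control library. Its log2 fold change of −0.91 ± 0.11 SE was 1.88-fold lower (edgeR adjusted p = 8.06e-10). Its mean level was 10.3 ± 0.788 CPM with ASPS-A1 and 19.3 ± 2.14 CPM in control, and no other annotated gene shares its exons.

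The IRAK family changed by less, and its members differed in direction. Irak4, the kinase that starts the cascade, had 21.5, 20.9 and 22.4 CPM with ASPS-A1, against 25.8, 27.8 and 27.4 CPM in control. It was lower in all 3 treated libraries, with a log2 fold change of −0.32 ± 0.09 SE, or 1.25-fold lower (edgeR adjusted p = 0.000908). Irak2, which sustains the response and in mouse also has inhibitory splice forms, had 99.0, 98.2 and 94.97 CPM with ASPS-A1, against 107.8, 110.4 and 109.5 CPM in control. Its groups did not overlap, but the difference was small, at −0.17 ± 0.05 SE or 1.12-fold lower (edgeR adjusted p = 0.00529).

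Irak3, which encodes IRAK-M, the family member known to restrain signalling in macrophages, was the 1 IRAK past the threshold upward. It had 69.4, 75.4 and 70.3 CPM with ASPS-A1, against 60.5, 51.9 and 59.3 CPM in control. The lowest treated library was above the highest control library, and the log2 fold change was 0.33 ± 0.06 SE, or 1.25-fold (edgeR adjusted p = 1.88e-05).

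Irak1, the kinase that leaves the complex to act with TRAF6, had 45.5, 44.2 and 47.6 CPM with ASPS-A1, against 44.5, 43.6 and 48.8 CPM in control. All treated libraries lay within the control range. The log2 fold change was 0.0044 with a 95% interval from −0.13 to 0.14 (edgeR adjusted p = 0.959). The interval leaves room for a change of up to about 0.14 in either direction.

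In the TRIF branch both adaptors rose and the ligase fell, though 2 of these 3 calls depended on the processing. Ticam2 lost its call with library totals (0.16, edgeR adjusted p = 0.172), and Traf3 lost it with length and GC offsets (−0.14, edgeR adjusted p = 0.0745). Ticam1 had 14.1, 17.3 and 19.1 CPM with ASPS-A1, against 9.44, 9.06 and 9.68 CPM in control. All treated libraries were higher, and they were spread more widely than the control libraries. The means were 16.8 ± 2.50 and 9.39 ± 0.311 CPM, a log2 fold change of 0.84 ± 0.12 SE or 1.79-fold (edgeR adjusted p = 2.73e-08), the largest rise among the 10 members.

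Ticam2, the bridge between TLR4 and TRIF, had 17.2, 16.8 and 19.4 CPM with ASPS-A1, against 13.3, 14.0 and 14.5 CPM in control. The groups did not overlap, and the log2 fold change was 0.35 ± 0.10 SE or 1.28-fold (edgeR adjusted p = 0.00246). Traf3, which couples TRIF to the kinases of IRF3 and limits other TRAF pathways, had 35.8, 33.6 and 34.0 CPM with ASPS-A1, against 44.9, 50.8 and 43.3 CPM in control. It was lower in each treated library, with a log2 fold change of −0.43 ± 0.07 SE or 1.34-fold lower (edgeR adjusted p = 2.13e-06).

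Set side by side, the MyD88 branch had 2 of 7 members higher, 4 lower and 1 not past the threshold, and the TRIF branch had 2 of 3 higher and 1 lower. The TRIF branch had 1 higher and 1 lower with library totals, and 2 higher and 0 lower once length and GC content were offset. The median log2 fold change was −0.17 over the MyD88 branch and 0.35 over the TRIF branch, beside −0.021 over all genes tested. With 3 members, the TRIF median is the value of Ticam2 itself. The branches were also compared step by step inside each library, where a ratio of counts does not depend on the scaling between libraries. Such a ratio compares changes, since counts of genes of different length do not compare their levels.

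The log2 ratio of Tirap to Ticam2, the membrane-bridging adaptors of the branches, was −1.33, −1.30 and −1.38 with ASPS-A1, against 0.060, −0.23 and −0.14 in control. This was the largest shift of the 6 ratios examined, a difference of −1.23 with no overlap. The log2 ratio of Myd88 to Ticam1, the central adaptors, was 1.64, 1.45 and 1.47 with ASPS-A1, against 1.86, 1.94 and 1.76 in control. Both genes rose, but Ticam1 rose by more, so that the ratio was lower by 0.33 on the log2 scale. The log2 ratio of Traf6 to Traf3 was −1.92, −1.69 and −1.62 with ASPS-A1, against −1.29, −1.51 and −0.99 in control, a difference of −0.48 between ligases that both fell. In these 3 ratios the MyD88-branch gene lost ground to its TRIF-branch counterpart in every treated library. Not all pairings across the branches go this way, since Myd88 rose (log2 fold change 0.50) while Traf3 fell (−0.43).

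Inside the IRAK family, the log2 ratio of Irak3 to Irak4 was 1.69, 1.85 and 1.65 with ASPS-A1, against 1.23, 0.90 and 1.11 in control, a difference of 0.65. That of Irak1 to Irak4 differed by 0.33 and that of Irak2 to Irak4 by 0.16, both higher with ASPS-A1. Groups did not overlap for any of the 6 ratios. Non-overlap was common, at 68.5% of single genes tested, and the share for ratios of other gene pairs was not computed. The IRAK ratios share Irak4, which fell, and Irak1 itself had a log2 fold change of 0.0044. By a two-sided exact permutation test (n = 3 each) p was 0.1 for each ratio, the smallest that 3 libraries against 3 can give, and 0.1 after Benjamini-Hochberg adjustment over the 6.

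**Figure D2:**
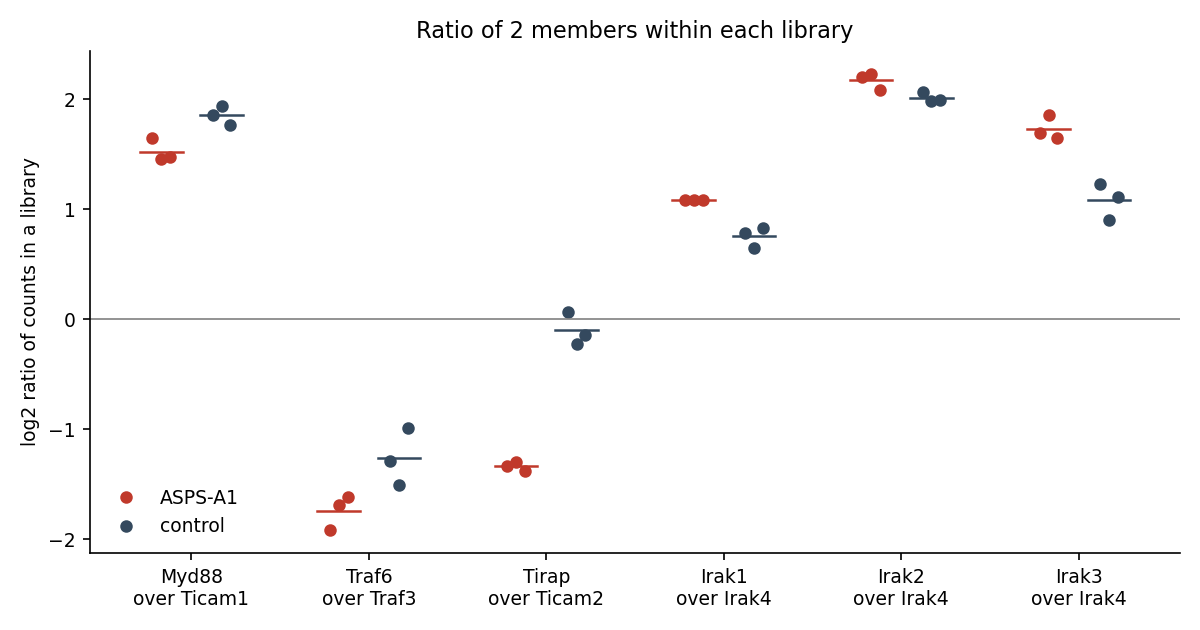
Log2 ratio of the counts of 2 genes within each library, 1 point per library with the group mean as a line, ASPS-A1 left and control right in each pair. The groups are apart in all 6 pairs, most widely for Tirap over Ticam2, where ASPS-A1 libraries lie between −1.38 and −1.30 and control libraries between −0.23 and 0.060.

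Levels were compared between genes only per kilobase of annotated exon. With ASPS-A1 the order by mean CPM per kb was Irak2 (22.1 ± 0.481), Irak3 (19.5 ± 0.886), Myd88 (18.7 ± 1.70), Irak1 (9.71 ± 0.362), Ticam1 (5.62 ± 0.836), Traf3 (4.69 ± 0.165), Irak4 (4.30 ± 0.154), Ticam2 (3.08 ± 0.236), Tirap (1.43 ± 0.0679) and Traf6 (1.30 ± 0.0999). The libraries overlapped between the neighbours Irak3 and Myd88, Ticam1 and Traf3, and Tirap and Traf6. In control the order was Irak2 (24.8 ± 0.295), Irak3 (15.6 ± 1.26), Myd88 (13.2 ± 0.389), Irak1 (9.67 ± 0.601), Traf3 (6.30 ± 0.542), Irak4 (5.38 ± 0.213), Ticam1 (3.14 ± 0.104), Tirap (2.63 ± 0.197), Traf6 (2.45 ± 0.272) and Ticam2 (2.40 ± 0.109). There the libraries of Tirap, Traf6 and Ticam2 overlapped with their neighbours. By this length, Ticam1 ranked above Traf3 and Irak4 with ASPS-A1 and below them in control. Ticam2 ranked above Tirap and Traf6 with ASPS-A1. These ranks depend on the length used, which was the joint exon length of all annotated forms. It was 5021 nt for Irak4 and 5792 nt for Ticam2, whose longest single transcripts have 3437 and 4204 nt. The order per longest transcript was not computed.

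As shares of the 4 IRAK transcripts per length, Irak3 held 34.2%, 36.4% and 34.6% with ASPS-A1, against 29.7%, 26.2% and 28.4% in control. Irak2 held 39.7% ± 0.827 with ASPS-A1 and 44.7% ± 1.46 in control, and Irak4 held 7.74% ± 0.351 and 9.73% ± 0.514 (exact permutation p = 0.1 for each, n = 3 each). Irak1 held 17.5% ± 0.815 with ASPS-A1 and 17.5% ± 0.686 in control, with overlapping groups. Irak2 and Irak3 together made up most of the IRAK transcripts in every library.

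Among the 4 adaptors, Tirap held 5.28%, 4.88% and 4.74% with ASPS-A1, against 13.0%, 11.3% and 12.6% in control. Ticam1 held 19.5% ± 1.27 with ASPS-A1 and 14.7% ± 0.555 in control, and Myd88 held 64.9% ± 0.439 and 61.7% ± 1.49 (exact permutation p = 0.1 for each, n = 3 each). The share of Ticam2 was 10.7% ± 0.577 with ASPS-A1 and 11.3% ± 0.609 in control, with overlapping groups (exact permutation p = 0.3, n = 3 each).

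**Figure D3:**
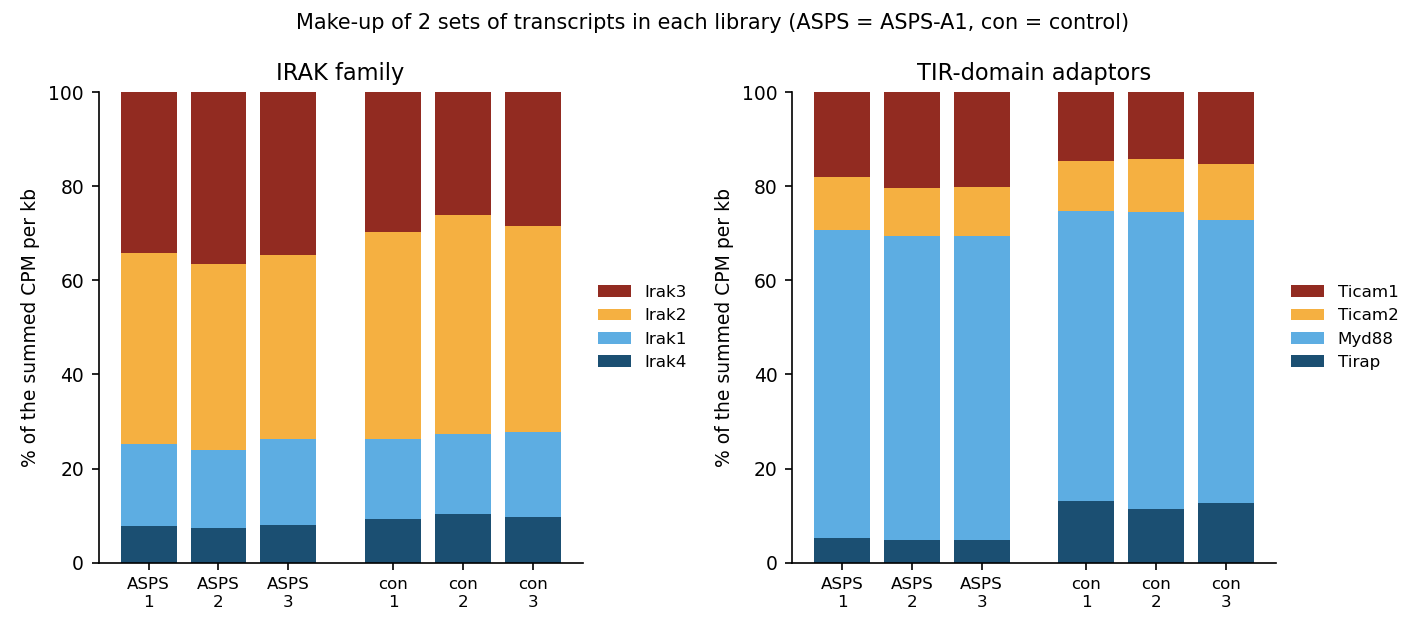
Share of the summed CPM per kb of exon that each gene held in each library, for the IRAK family (left) and the TIR-domain adaptors (right), with ASPS-A1 libraries before control libraries. The Irak3 segment is taller in all 3 ASPS-A1 libraries, and the Tirap segment is shorter, at 4.74% to 5.28% against 11.3% to 13.0%.

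Scaling and transcript length bear on the smaller changes. With library totals in place of TMM factors, the median gene shifted by −0.20 on the log2 scale, the counts over all genes went to 2529 higher and 5454 lower against 3783 and 3852, and 2 members were higher and 6 lower. Irak3 (0.13, edgeR adjusted p = 0.0820) and Ticam2 then lost the call, and Irak1 was lower (−0.19, edgeR adjusted p = 0.0179). Tirap, Myd88, Traf6, Ticam1, Traf3, Irak4 and Irak2 kept their direction and their call.

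Genes with longer transcripts tended to be lower in this comparison. Over 10 bins of equal size, genes of 195 to 1420 nt had a median of 0.45 on the log2 scale and those of 6780 nt or more a median of −0.26. The lowered ligases have long transcripts, 6169 nt for Traf6 and 7060 nt for Traf3, and lie in bins with medians of −0.26 each. Myd88 (2458 nt) lies in a bin with a median of 0.16, Ticam1 (2992 nt) in one at −0.045 and Tirap (4589 nt) in one at −0.20. When transcript length and GC content were offset, Traf3 was no longer called. Traf6 (−0.70), Tirap (−0.73), Myd88 (0.43) and Ticam1 (0.89) kept their calls.

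**Figure D4:**
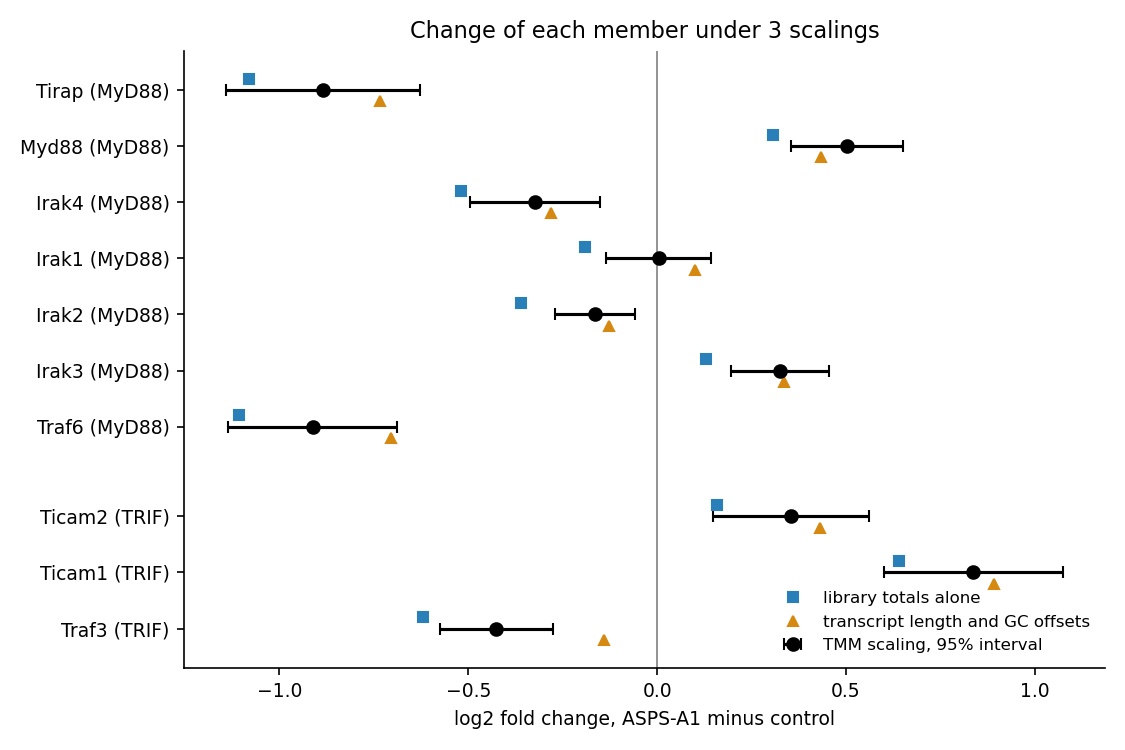
Log2 fold change, ASPS-A1 minus control, of each gene with TMM scaling (circles, bars are 95% intervals), with library totals alone (squares) and after length and GC offsets (triangles). Tirap, Irak4, Irak2, Traf6 and Traf3 stay left of 0 under all 3. Myd88, Irak3, Ticam2 and Ticam1 stay right of it, while Irak1 lies on both sides.

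Whether reads were counted by strand is not stated, and overlapping genes may have shared reads. In the GENCODE annotation of GRCm38, 11.3% of the Myd88 exon length lies opposite Acaa1a, which had a log2 fold change of −0.24 while Myd88 rose. For Tirap, 9.84% of the exon length is covered, mainly by Srpr on the opposite strand, which had 0.32 while Tirap fell. Irak4 shares 7.87% with Twf1 (−0.55) and Irak3 shares 5.98%, mainly with Tmbim4 (0.41), and these neighbours moved the same way as the members. Ticam2 shares 14.5% with Tmed7 on its own strand, and Tmed7 was much more abundant, at 223 ± 14.7 CPM with ASPS-A1 and 217 ± 10.7 CPM in control, with a log2 fold change of 0.038. The part of these overlaps in the values was not tested.

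Around the members, the receptor transcripts were mostly lower. Of 12 receptors that use MyD88 and not TRIF, 9 were tested, of which 6 were lower, 1 was higher and 2 were not past the threshold (median −0.44). Over all genes tested, 33.0% were lower and 32.4% higher. Tlr13 (−2.64), Tlr9 (−2.03) and Tlr6 (−1.08) fell. Tlr13 and Tlr9 had only 68 and 36 counts over the treated libraries, against 579 and 201 over the control libraries. Tlr1 had 0.35, a call that ended without ASPS-A1 replicate 3 (0.30, edgeR adjusted p = 0.0587) or control replicate 2 (0.28, edgeR adjusted p = 0.0651), leaving 0 risen in each case, and 7 then fell without control replicate 2. With library totals Tlr1 was at 0.15 (edgeR adjusted p = 0.264), and 0 receptors rose and 7 fell. Of the receptors that use TRIF, Tlr4 fell by 1.08 on the log2 scale, at 2.91 ± 0.585 CPM with ASPS-A1 and 6.16 ± 1.12 CPM in control, while Tlr3 had 1 count over the treated libraries and 13 over the control libraries and was not tested.

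Of 11 genes whose proteins act below TRAF6, 2 were higher, 4 lower and 5 not past the threshold (median −0.043). Of all genes tested, 32.4% were higher and 33.0% lower, so these counts say little by themselves. Irf7 (0.97), an interferon regulatory factor of the endosomal receptors, and Ube2n (0.34), the conjugating enzyme that TRAF6 works with, rose. Map3k7 (−0.54), which encodes TAK1, Ikbkg (−0.45), the scaffold of the IKK complex, and Irf5 (−0.32) fell. With library totals 7 of these 11 were lower and the median was −0.24, and without ASPS-A1 replicate 2 there were 3 higher. Without ASPS-A1 replicate 1 it was −0.15. Length and GC offsets turned it to 0.052 and moved Map3k7 to −0.34 and Ikbkg to −0.24.

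Of 11 genes whose proteins act below TRIF, 1 was higher, 5 lower and 5 not past the threshold (median −0.27). The shares over all genes tested were 32.4% higher and 33.0% lower. Ikbke, the kinase IKKε, rose by 1.10 on the log2 scale, to 221 ± 6.48 CPM with ASPS-A1, against 103 ± 4.22 CPM in control. Ripk1 (−1.18), which links TRIF to NF-κB and cell death, Irf3 (−0.70), the transcription factor of the branch, and Casp8 (−0.36) fell. Leaving out ASPS-A1 replicate 2 or control replicate 3, or using relative log expression factors, gave 2 higher. With library totals or upper-quartile factors 7 were lower. Tbk1, the other kinase of IRF3, which was named after its values were seen, had −0.35 (edgeR adjusted p = 1.59e-06).

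For ligases that act on or with IRAKs and TRAFs, 6 of 8 genes were tested. Of these, 3 were higher, 1 lower and 2 not past the threshold (median 0.12). Beside these counts stand 32.4% higher and 33.0% lower over all genes tested. Peli1 (0.61), a Pellino ligase that ubiquitinates IRAK1, Traf2 (0.42) and Birc2 (0.30) rose. Birc2 lost its call with library totals (0.10, edgeR adjusted p = 0.143). Rnf216 (−0.29) was lower with overlapping groups, and was not called with the length and GC offsets (−0.12, edgeR adjusted p = 0.186).

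Another 13 genes encode proteins known to restrain the adaptors and IRAKs or their output. Of these, 12 were tested, with 3 higher, 4 lower and 5 not past the threshold (median 0.022). These counts are near the shares over all genes tested, 32.4% higher and 33.0% lower. Tifab (−1.09), Zc3h12a (−0.99), the RNase Regnase-1 that degrades cytokine messages, and Trafd1 (−0.49) fell, while Tnip1 (0.57), a partner of A20, rose. Tifab was scarce, at 71 counts over the treated libraries and 205 over the control libraries. Il1rl1 (0.69) lost its call without ASPS-A1 replicate 2 (0.38, edgeR adjusted p = 0.314), ASPS-A1 replicate 3 (0.69, edgeR adjusted p = 0.0562), control replicate 2 (0.56, edgeR adjusted p = 0.112) or control replicate 3 (0.58, edgeR adjusted p = 0.112). Tollip, which binds IRAK1, had 0.15, and lost its call without ASPS-A1 replicate 1 (0.12, edgeR adjusted p = 0.173), ASPS-A1 replicate 3 (0.16, edgeR adjusted p = 0.0589) or control replicate 3 (0.081, edgeR adjusted p = 0.340). Il1rl1 also lost it with library totals (0.49, edgeR adjusted p = 0.123) and with limma-voom (0.64, limma adjusted p = 0.0559). Tollip was at −0.045 with library totals and at 0.098 with upper-quartile factors (edgeR adjusted p = 0.194), and it also missed the threshold with DESeq2, with other filters and without the robust fit. Only 1 was called higher when ASPS-A1 replicate 3 or control replicate 3 was left out, with library totals or against a 1.2-fold change, and 6 were after length and GC offsets. Under most other alternatives 2 were called higher. The median was −0.17 with library totals, −0.030 with upper-quartile factors, −0.013 when ASPS-A1 replicate 2 was left out and −0.035 when control replicate 3 was.

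Transcripts that the branches are known to induce mostly rose, though both sets also answer to other receptors. For comparison, 32.4% of all genes tested were higher and 33.0% lower. Of 10 NF-κB targets, 8 were tested and all 8 were higher (median 2.35), with Il1b at 31.5 ± 3.04 CPM with ASPS-A1 and 2.08 ± 0.230 CPM in control, and log2 fold changes of 3.06 for Il6 and 2.72 for Cxcl2. Of these, 7 were called without control replicate 3, with library totals or against a 1.2-fold change. The exception was Nfkbiz, named after its values were seen, which had 0.18, 0.12 without control replicate 3 (edgeR adjusted p = 0.0953) and −0.012 with library totals (edgeR adjusted p = 0.873). Of 9 IRF3 and interferon targets found in the table, 5 were tested, and 4 were higher and 1 lower (median 1.79). Ccl5 was at 28.6 ± 1.17 CPM with ASPS-A1 and 5.41 ± 0.387 CPM in control, while Cxcl10 and Isg15 were scarce, at 86 and 77 counts over the treated libraries against 33 and 30 over the control libraries.

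Ifit2 had −0.38 (edgeR adjusted p = 0.0396). It was not called in 5 of the 6 fits that left out 1 library, namely without ASPS-A1 replicate 1 (−0.35), 2 (−0.39) or 3 (−0.40) or control replicate 1 (−0.30) or 3 (−0.31), where the number lower was 0. The call also ended with DESeq2 (adjusted p = 0.0717) and limma-voom (adjusted p = 0.0644). Ifnb1, the interferon that IRF3 induces, had 2 counts over the treated libraries and 0 over the control libraries.

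**Figure D5:**
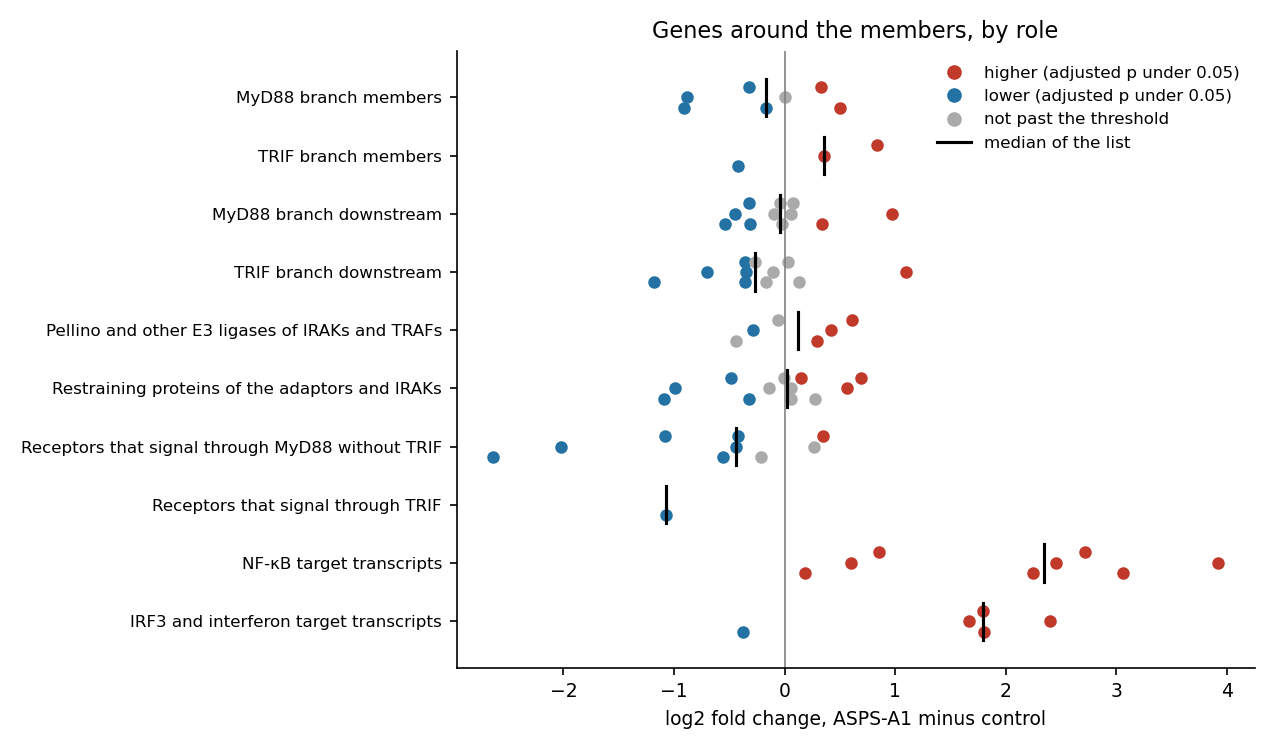
Log2 fold change, ASPS-A1 minus control, of every tested gene in each list, coloured by whether edgeR's adjusted p was under 0.05, with the list median as a black bar. The receptors lie mostly left of 0 (median −0.44 for those without TRIF), and the members and the genes below them on both sides. The NF-κB targets lie right of 0 (median 2.35).

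All 8 macrophage markers were detected, and 6 rose, against 32.4% of all genes tested. Csf1r (log2 fold change −0.095) and Mertk were not past the threshold. Mertk was scarce, at 0.652 ± 0.386 CPM with ASPS-A1 and 0.714 ± 0.196 CPM in control. The summed levels of the 8 were 2826 to 2970 CPM with ASPS-A1 and 1933 to 1955 CPM in control. No marker of fibroblasts, epithelium or neutrophils passed the filter, and their sums stayed at 0.636 CPM or less in every library. Epcam, Krt8, S100a9, Ly6g, Mpo, Elane, Cd3e and Cd3g were at 0 counts throughout. Lck, listed among 4 T cell markers found, had 5.36 ± 1.27 CPM with ASPS-A1 and 2.31 ± 0.115 CPM in control. Cd79b, a B cell marker, had 34.6 ± 3.29 CPM with ASPS-A1 and 31.0 ± 1.23 CPM in control, and was not past the threshold. The B cell markers Cd79a, Ms4a1 and Pax5 had only 2, 1 and 1 counts over the treated libraries. Over the control libraries they had 5, 0 and 8. The summed T cell markers ran from 4.73 to 6.73 CPM with ASPS-A1 and from 2.22 to 2.62 CPM in control. The part of the macrophage marker rise in the members' values was not tested.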

How the data were processed

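The deposited table holds whole-number counts per gene symbol, 1 column per library. Among the tools in the submitters' processing notes, listed without roles, are HTSeq 0.9.1 and DESeq 1.38.3, with HISAT2 2.1.0 and fastp 0.22.0. Genome build, annotation and strand setting: not given in the sources used here.

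Genes were kept with filterByExpr (minimum count 10, minimum total 15), scaled with TMM factors and tested with the quasi-likelihood test of edgeR 4.0.16 (robust) in R 4.3.3, with no covariates. P-values were adjusted by Benjamini-Hochberg over all genes tested, and the threshold was 0.05. A positive log2 fold change means higher with ASPS-A1, and its SE was derived from the F statistic (size of the change over root F). Ratios used a pseudocount of 0.5. Exon lengths and overlaps come from GENCODE M21 (GRCm38). Transcript lengths were found for 95.8% of the genes tested.

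Alternatives were other scaling factors, DESeq2 1.42.0, limma-voom (limma 3.58.1), other filters, a fold threshold, a replicate block, length and GC offsets (lowess, span 0.3) and leaving out each library. No library is a copy of another, since same-group pairs had chi-square values of 4.21 to 6.80 per degree of freedom.

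The members and gene lists were chosen with earlier results of these data known. Every member is described. From each list other than the cell type markers, up to 3 called genes per direction with the largest changes are named. Tbk1 and Nfkbiz are said to be named after their values were seen, and Tlr3 and Ifnb1 were also named outside this rule. One marker result is not reported here.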

Additional observations from a re-analysis of the deposited data

How the results depend on the processing

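Of the 18 alternatives, Tirap, Myd88, Traf6 and Ticam1 kept their direction and their call under all of them. Their log2 fold changes ran from −1.08 to −0.73, from 0.31 to 0.56, from −1.11 to −0.70 and from 0.64 to 0.95. With library totals alone, 2 members were higher, and the branch medians were −0.36 for MyD88 and 0.16 for TRIF, where the median of all genes was −0.22. Of the calls made with TMM factors 49.5% were upward, against 31.7% with library totals. Tested against a 1.2-fold change instead of none, 2 members were higher and 3 lower, and 4953 genes were called (2460 higher and 2493 lower) against 7635. That stricter question ended the calls of Irak4, Irak2, Irak3 and Ticam2, and of Irf5, Tbk1, Casp8, Rnf216, Birc2, Tollip, Il1rl1, Tlr1, Nfkbiz and Ifit2. Irak1, never called upward, had a log2 fold change of −0.048 with upper-quartile factors, −0.19 with library totals, −0.0045 with no filter, and from −0.029 to 0.053 with 1 library left out. Tollip was at −0.045 with library totals. No member lost its call when 1 library was left out. With the length and GC offsets Traf3 lost its call, also together with the replicate block (−0.14, adjusted p = 0.0876).

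No pairing by library number was seen in these values. Deviations of same-numbered libraries from their group means correlated at −0.014, 0.0071 and 0.0040, and none matched its own number best. The correlations cannot show whether same-numbered libraries were handled together. With a replicate block, 4 members were higher and 5 lower as without it. Of the genes named from the lists, Tollip missed the threshold with the replicate block (0.15, adjusted p = 0.0504), and Ifit2 did with the block and the offsets together (adjusted p = 0.0578). Depth limits the scarce targets, since 4 of the 9 IRF3 and interferon targets had too few counts to test.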
